A study of Mus musculus with 6 samples.

Results

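The 35 genes described here encode proteins that detect and repair damaged DNA, and they were followed in peripheral T-cell lymphomas (PTCL) of Dnmt3b+/- mice. They were chosen by name, as genes of homologous recombination, the Fanconi anemia pathway, break sensing and checkpoint signalling, end joining and mismatch repair. All 35 were found, each once, among the 34245 rows of the deposited table, which hold 34197 gene symbols. The table gives RNA-seq of 3 tumors, numbered 1 to 3, from the lymph nodes of 3 mice of the FVB strain. The series has 6 samples, and its 3 bisulfite libraries, 2 of Dnmt3b+/- and 1 of Dnmt3a-/- PTCL, were not analysed here.

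The mice carried a germline knock-out of 1 Dnmt3b allele in every cell, and the tumors arose spontaneously and were collected from terminally sick animals; the age of each mouse was not given in the sources used here. RNA came from whole tumor tissue, without sorting named for these libraries, so it holds RNA of whatever other cells the lymph node contained. No normal T cells and no Dnmt3b+/+ tumors are among these samples, so no value below says what the knock-out does. The numbers only name the animals. The 3 tumors are the replicates of a single group, a test against another group was not possible, and each ratio of 2 tumors compares 2 libraries.

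Double-strand breaks are repaired either by homologous recombination, which copies an intact sister chromatid in S and G2 phase, or by non-homologous end joining, which ligates the ends in any phase and also completes V(D)J recombination of antigen receptor genes in developing lymphocytes. The Fanconi anemia proteins unhook crosslinks between the DNA strands and hand the break to homologous recombination. Checkpoint kinases hold the cycle while repair proceeds, and mismatch repair removes replication errors; inherited loss of several of these genes predisposes to lymphoma.

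Values are FPKM, fragments per kilobase of exon scaled to the depth of the library, as the authors made them. The value held by genes without a read, and the exon lengths of the GENCODE annotation, returned the depth of each library as 30726570 reads for tumor 1, 18969988 for tumor 2 and 20770928 for tumor 3. With these depths 93.6%, 93.5% and 93.5% of gene values came out as whole reads, within 0.05 read or, above 1000 reads, in proportion. These shares include the 14428, 15660 and 16480 genes without a read, which fit by construction because their value set the depth. The shares among genes with reads are therefore lower, and at the highest counts the tolerance passes any value. Tumor 1 was thus the most deeply sequenced, and counting error was smallest there. Whole reads were recovered for 33 of the 35 genes, from 28 reads at the lowest to 3207 at the highest; Fance and Msh6 were not whole, and are given as FPKM only. Intervals below are exact 95% intervals of counting error alone. Exon length here is that of all annotated exons of a gene merged, which can exceed its longest transcript. Levels of different genes, and rankings by level, therefore also depend on the annotation, whereas ratios of 2 tumors for 1 gene do not.

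Dnmt3b itself, the targeted gene, was at 0.975, 1.55 and 1.25 FPKM (tumors 1, 2 and 3), from 153, 150 and 133 reads. The table gives 1 value per gene, not per exon, so it cannot tell transcripts of the knocked-out allele from those of the intact one and does not check the genotype. The T-cell label was checked against 6 T cell markers (Cd3e, Cd3g, Cd5, Trbc2 and the CD8 chains Cd8a and Cd8b1), of which 6 were above 1 FPKM in every tumor. The most abundant, the CD8 coreceptor chain Cd8b1, was at 435, 166 and 443 FPKM in tumors 1, 2 and 3.

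Every repair gene was detected in every tumor. Of the 35 genes, 25 reached at least 1 FPKM in all 3 tumors, a level that 28.4% of all 34197 gene symbols reached. The mean over tumors ran from 0.394 FPKM for Fancc to 14.3 for Msh6, with a median of 2.53. That was low among expressed genes: the median of the 11190 genes with a mean of at least 1 FPKM was 5.70, and 5 of the 35 repair genes exceeded it. Of the 35, 4 had a mean under 1 FPKM, and the 5 genes above that median were among the other 31. By role, on the FPKM scale, the checkpoint and break-sensing group was highest, with a median over its genes of 4.15 FPKM, followed by end joining at 3.49, mismatch repair at 2.42, the Fanconi anemia group at 2.25 and homologous recombination at 1.74.

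**Figure D1:**
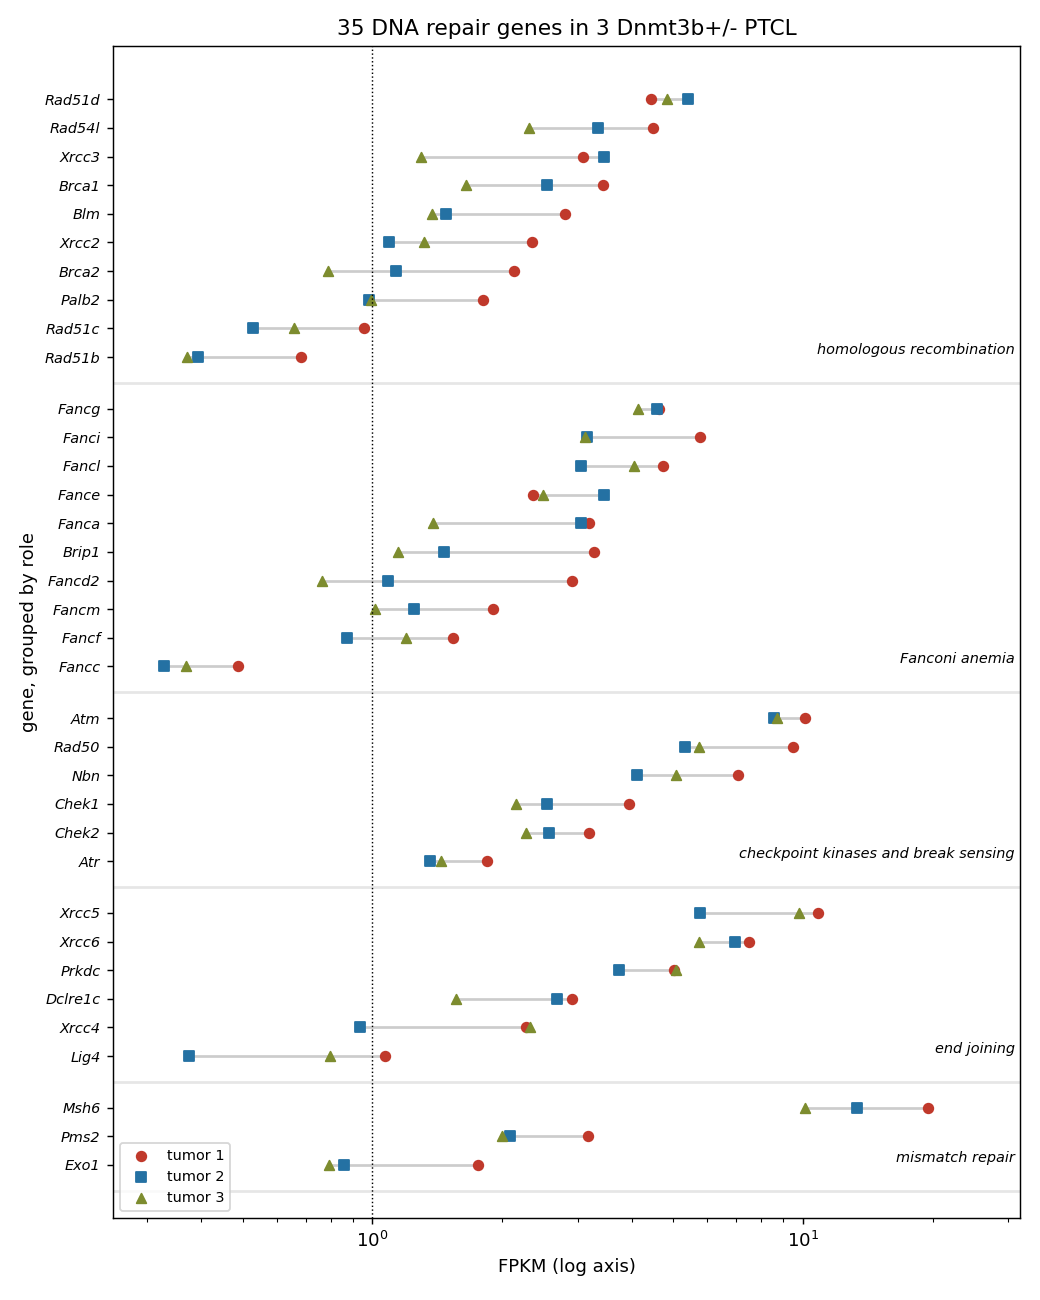
FPKM of the 35 repair genes on a log axis, grouped by role, with 1 point per tumor, a line from the lowest to the highest tumor and a dotted line at 1 FPKM. Tumor 1 holds the highest point in 30 of the 35 genes.

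Tumor 1 was highest for 30 of the 35 genes, tumor 2 for 3 (Rad51d, Xrcc3 and Fance) and tumor 3 for 2 (Xrcc4 and Prkdc). Across all 11190 genes with a mean of at least 1 FPKM, 50.6% were highest in tumor 1. Of the repair genes, 31 passed that filter, and 26 of these 31 were highest in tumor 1. Among these 26, Brca2, Palb2, Fancd2 and Exo1 passed only through tumor 1, as their means over tumors 2 and 3 were under 1 FPKM. The same genes are in all later counts of repair genes past this filter. The order from tumor 1 through tumor 2 to tumor 3 was found for 17 of the 31, and for 20.5% of all genes. The excess of tumor 1 is partly shared by all genes: the median log2 ratio of all genes was 0.18 for tumor 1 over tumor 2 and 0.24 for tumor 1 over tumor 3, and that of the 35 repair genes was 0.63 and 0.72, so that the repair genes stood 0.45 and 0.49 above all genes. With median-of-ratios factors, which center all genes, 25 of the 35 were highest in tumor 1, and Fanca, Fancg, Xrcc5, Xrcc6 and Dclre1c no longer were. Between tumors 2 and 3 genes went both ways, and the median log2 ratio was 0.06 for all genes and 0.11 for the repair genes.

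The ratios also moved with the base composition of the transcripts. Over all genes the ratio of tumor 1 to tumor 2 fell along the GC content of the transcript, from a median log2 ratio of 0.89 in the lowest of 10 equal bins of GC content (median 39.6%) to -0.46 in the highest bin (median 59.3%). For tumor 1 over tumor 3 the same medians were 0.48 and 0.05, and for tumor 2 over tumor 3 they were -0.37 and 0.44. The repair genes lie towards low GC content: 24 of the 31 with a mean of at least 1 FPKM were below the median of all genes, 49.7%, and their own median was 46.2%. Dividing each value by the median deviation of genes in the same GC bin, an alternative chosen after seeing the data, lowered the excess of the 35 repair genes over all genes from 0.45 to 0.26 for tumor 1 over tumor 2 and from 0.49 to 0.39 for tumor 1 over tumor 3. For the 31 past the filter, the median log2 ratios of tumor 1 over tumors 2 and 3 were 0.61 and 0.83 on the FPKM scale. After the correction they were 0.20 and 0.40, beside 0.008 and -0.003 for all genes. On this scale tumor 1 was highest for 24 of the 35 genes, tumor 2 for 6 and tumor 3 for 5; of the 31 past the filter, 20 were highest in tumor 1, beside 35.5% of all 11168 genes with a GC content. The ratios also rose with transcript length, from a median of -0.07 in the bin of the shortest transcripts to 0.29 in that of the longest for tumor 1 over tumor 2 and from 0.10 to 0.33 for tumor 1 over tumor 3, and the 31 repair genes are longer, with a median of 4485 bases beside 3050; no correction for length was made. Whether GC content, length or the tumors themselves set these ratios was not tested.

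**Figure D2:**
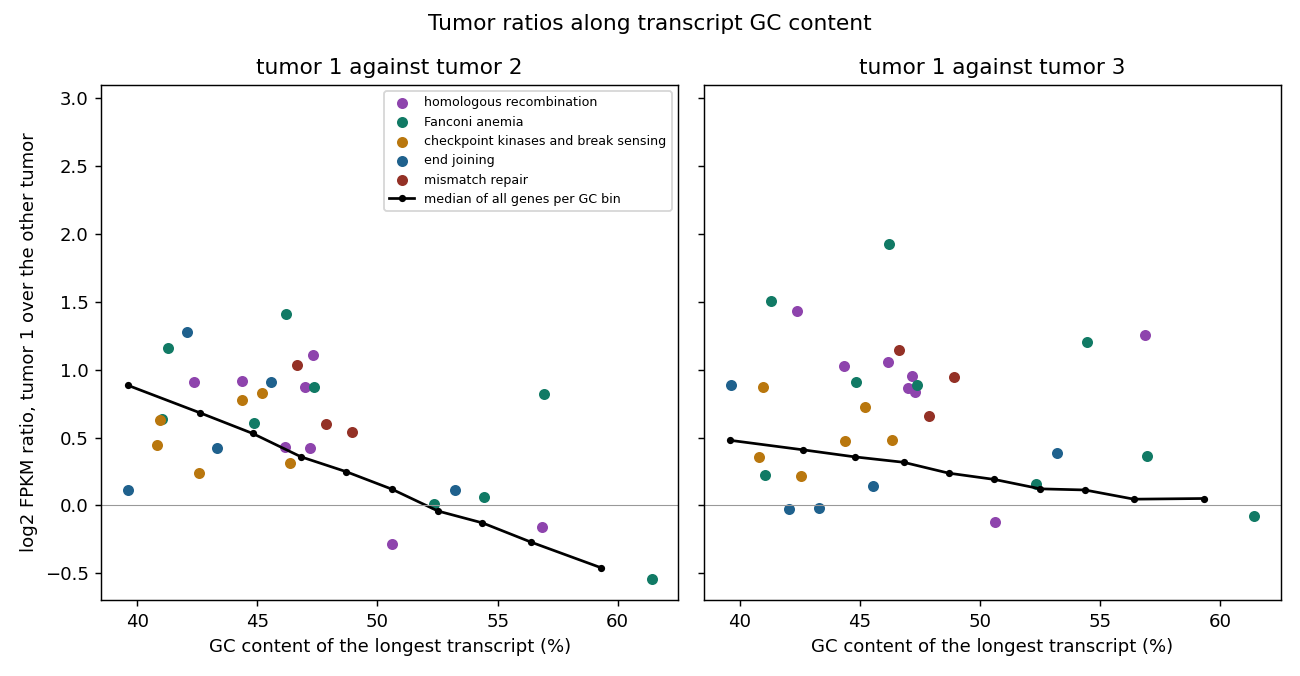
log2 FPKM ratio of tumor 1 to tumor 2 (left) and to tumor 3 (right) against the GC content of the longest transcript, in percent. Colored points are the 31 repair genes with a mean of at least 1 FPKM and the black line joins the medians of all genes in 10 bins of GC content, which fall from 0.89 to -0.46 on the left and from 0.48 to 0.05 on the right.

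**Figure D3:**
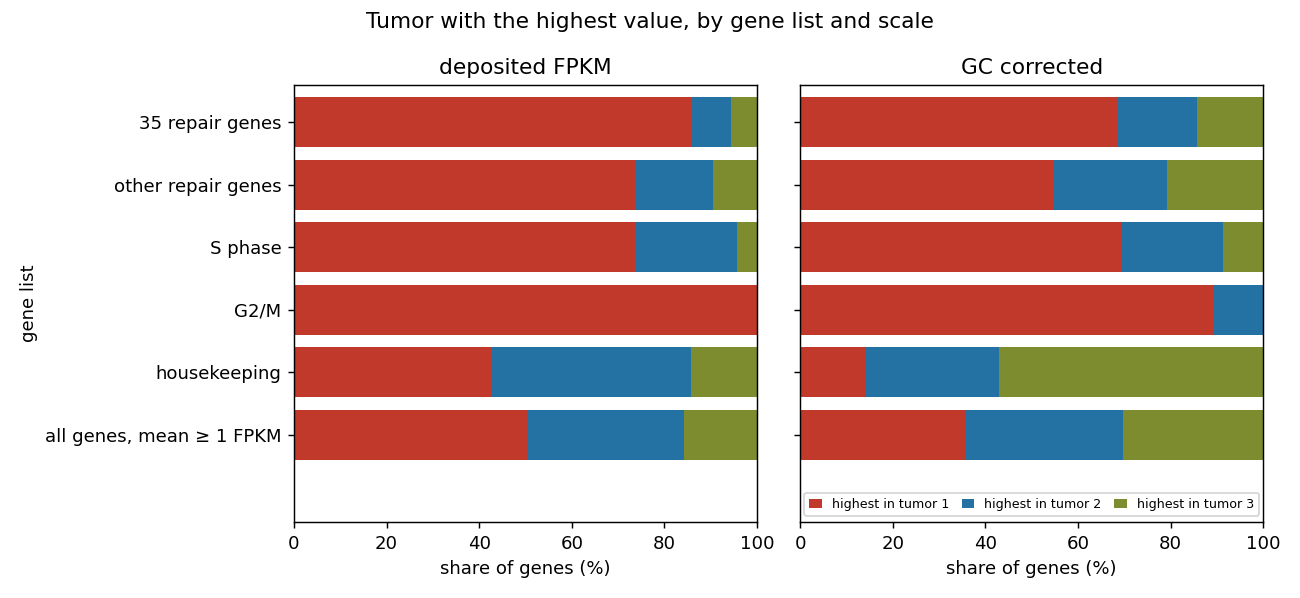
Share of genes, in percent, with the highest value in each tumor, for 6 gene lists on the deposited FPKM scale (left) and after the GC correction (right). Of the 35 repair genes, 30 are highest in tumor 1 on the left and 24 on the right.

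Homologous recombination genes were mostly highest in tumor 1, in 8 of 10 on the FPKM scale and 9 of 10 after the GC correction. Brca2, which loads the recombinase onto single-stranded DNA, was at 2.14, 1.14 and 0.790 FPKM (tumors 1, 2 and 3), from 896, 294 and 224 reads. Tumor 1 was 2.70-fold above tumor 3 (95% interval of counting error 2.33 to 3.14), and 2.02-fold after the GC correction. Brca1, which promotes end resection and recruits the recombination machinery, was at 3.43, 2.55 and 1.65 FPKM. Its ratio of tumor 1 to tumor 3 was 2.08 (1.82 to 2.38), and 1.66 after the GC correction. Palb2, the bridge between both BRCA proteins, was at 1.80 FPKM in tumor 1 and close together in the others, at 0.984 and 0.990.

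The strand exchange and unwinding factors had several orders of tumors. Blm, the helicase that dissolves recombination intermediates, was at 2.80, 1.48 and 1.38 FPKM. Rad54l, a motor that aids strand invasion, was at 4.48, 3.34 and 2.31 FPKM, and each tumor differed from the next beyond counting error; after the GC correction the ratio of tumor 1 to tumor 2 went from 1.34 to 1.04. Xrcc3, a paralog of the recombinase, had another order, at 3.09, 3.45 and 1.30 FPKM; the ratio of tumor 2 to tumor 3 was 2.66 (2.02 to 3.54), and tumors 1 and 2 were within counting error of each other. After the GC correction Xrcc3 was at 3.25, 2.99 and 1.42, highest in tumor 1. Of the other paralogs, Xrcc2 was at 2.35, 1.09 and 1.32 FPKM. Rad51d was the most even and the most abundant of them, at 4.44, 5.41 and 4.84 FPKM. Rad51b and Rad51c were low, at 0.483 ± 0.175 and 0.715 ± 0.220 FPKM (mean ± SD, n = 3).

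In the Fanconi anemia group, Fancd2 had the widest spread of the 35 genes. The gene lies at chr6:113531682-113597017 (mm10) and encodes a subunit of the ID complex, which is clamped on DNA at a crosslink; its mRNA was at 2.90, 1.09 and 0.764 FPKM (tumors 1, 2 and 3), from 708, 164 and 126 reads. Tumor 1 was 3.80-fold above tumor 3 (3.14 to 4.63) and 2.67-fold above tumor 2 (2.25 to 3.18), and 3.04-fold and 2.06-fold after the GC correction. Fanci, its partner in that complex, was at 5.76, 3.15 and 3.12 FPKM, so the level of Fanci over that of Fancd2 was 1.98, 2.89 and 4.08 across tumors 1, 2 and 3. Brip1, the helicase bound to BRCA1, was close to Fancd2 in pattern on the FPKM scale, at 3.27, 1.46 and 1.15 FPKM, and 2.84-fold (2.41 to 3.36) higher in tumor 1 than in tumor 3. After the GC correction the ratio of Brip1 over tumor 3 was 2.12, and that over tumor 2 went from 2.23 to 1.41, beside 2.06 for Fancd2.

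The Fanconi core complex, which ubiquitinates the ID complex, did not move as 1 block. Fanca was at 3.18, 3.04 and 1.38 FPKM (tumors 1, 2 and 3), low in tumor 3 only, as Xrcc3 was, and tumors 1 and 2 were within counting error on the FPKM scale. Fancg, which binds Fanca, was even, at 4.62, 4.58 and 4.14 FPKM, with the smallest ratio of highest to lowest tumor among the 35 genes, 1.12. Fance was highest in tumor 2, at 2.36, 3.44 and 2.50 FPKM; it has the highest GC content of the 35, 61.4%, and after the GC correction its ratio of tumor 1 to tumor 2 went from 0.686 to 0.939. Fancl, the ubiquitin ligase subunit, was at 4.73, 3.05 and 4.04 FPKM and highest in tumor 1, but in tumor 3 after the GC correction. Fancf was at 1.54, 0.873 and 1.20 FPKM from 80, 28 and 42 reads. The DNA translocase Fancm was at 1.39 ± 0.463 FPKM, and Fancc was lowest of the 35 on the FPKM scale at 0.394 ± 0.0825 (n = 3). Merged exons of Fancc have 8359 bases beside a longest transcript of 3165, so this rank depends on the length used. On the FPKM scale 9 of the 10 genes of the group were highest in tumor 1, and after the GC correction 8.

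The checkpoint and break-sensing genes were highest in tumor 1 in 6 of 6 on the FPKM scale but in 2 of 6 after the GC correction, which put Atm, Atr, Chek1 and Chek2 highest in tumor 2. Their median GC content, 43.5%, is low. Atm, the kinase activated by double-strand breaks, was the most abundant of them and nearly even, at 10.1, 8.56 and 8.70 FPKM. Atr, the kinase activated by single-stranded DNA at stalled forks, was at 1.85, 1.36 and 1.45 FPKM. On that scale the level of Atm over that of Atr was 5.46, 6.29 and 6.01, and 5.83, 5.79 and 6.14 after the GC correction. The size of this ratio depends on the exon lengths. Merged exons have 23629 bases for Atr, beside a longest transcript of 8102, and 10338 for Atm, beside 9819. Chek1, the target of ATR, was at 3.94, 2.55 and 2.15 FPKM, and Chek2, the target of ATM, at 3.19, 2.56 and 2.28. Rad50 and Nbn, 2 subunits of the complex that senses broken ends, were at 9.46, 5.33 and 5.72 FPKM and at 7.07, 4.12 and 5.07 FPKM; both were highest in tumor 1 on both scales.

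Of the 6 end joining genes, 4 were lowest in tumor 2 and 2 in tumor 3, the same counts as in the checkpoint and break-sensing group; of the 5 with a mean of at least 1 FPKM it was 3 and 2, beside 38.3% and 37.4% of all genes. Xrcc4, the scaffold of the ligation step, lies at chr13:89774027-90089608 (mm10) and was at 2.27, 0.938 and 2.32 FPKM (tumors 1, 2 and 3), from 294, 75 and 203 reads. Tumors 1 and 3 were within counting error of each other on the FPKM scale, with a ratio of 0.979 that became 0.732 after the GC correction, and the ratio of tumor 2 to tumor 3 was 0.405 (0.306 to 0.530), or 0.477 after the GC correction. Lig4, the ligase that XRCC4 stabilises, was at 1.07, 0.375 and 0.796 FPKM, from 171, 37 and 86 reads. Xrcc5, the larger Ku subunit that binds broken ends, was at 10.8, 5.76 and 9.80 FPKM, while Xrcc6, the other Ku subunit, was at 7.50, 6.94 and 5.73. The level of Xrcc5 over that of Xrcc6 was 1.44, 0.830 and 1.71 across tumors 1, 2 and 3, and 1.21, 1.03 and 1.67 after the GC correction. The size of this ratio also depends on length: merged exons of Xrcc6 have 4476 bases beside a longest transcript of 3296. For Xrcc5 both are 2555.

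Prkdc, the catalytic subunit of the DNA-dependent protein kinase, was at 5.01, 3.73 and 5.07 FPKM, and tumors 1 and 3 were within counting error on that scale, but their ratio was 0.737 after the GC correction. Dclre1c, the Artemis nuclease that opens hairpin ends, was lowest in tumor 3, at 2.90, 2.68 and 1.57 FPKM; it has the lowest GC content of the 35, 39.6%, and the GC correction turned its ratio of tumor 1 to tumor 2 from 1.08 to 0.591. After the GC correction Xrcc4, Xrcc5 and Lig4 were still lowest in tumor 2 and Prkdc was not. The number highest in tumor 1 was 4 of 6 on the FPKM scale, 2 of 6 after the GC correction, 1 of 6 with median-of-ratios factors and 6 of 6 when each tumor was rescaled to a common sum.

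Mismatch repair genes were highest in tumor 1 and lowest in tumor 3 in 3 of 3, on the FPKM scale and after the GC correction. Msh6, a subunit of the mismatch recognition dimer, was the most abundant of the 35 genes, at 19.5, 13.4 and 10.1 FPKM. Pms2, the endonuclease subunit that nicks the new strand, was at 3.16, 2.08 and 2.00 FPKM. Exo1, the exonuclease that removes the mismatched stretch and also resects breaks, was at 1.76 FPKM in tumor 1 and at 0.858 and 0.795 in tumors 2 and 3, from 455, 137 and 139 reads.

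Counting ratios of at least 2-fold, 6 of the 35 genes were higher in tumor 1 than in tumor 2 (Xrcc2, Fancd2, Brip1, Xrcc4, Lig4 and Exo1), and 5 of these 6 passed the filter of a mean of 1 FPKM, against 15.1% of all genes. None was 2-fold higher in tumor 2 than in tumor 1, where 10.1% of all genes were. For tumor 1 over tumor 3 there were 8 (Brca1, Brca2, Blm, Xrcc3, Fanca, Fancd2, Brip1 and Exo1), all among the 31 past the filter, against 13.3%, and in the opposite direction 0 against 4.45%. Of the genes called in these comparisons, Brca2, Fancd2 and Exo1 passed the filter only through their level in tumor 1. For tumor 2 over tumor 3 there were 2 (Xrcc3 and Fanca) against 11.3%, and for tumor 3 over tumor 2 there were 2 (Xrcc4 and Lig4, of which Xrcc4 passed the filter) against 5.11%. After the GC correction 2 genes were 2-fold higher in tumor 1 than in tumor 2 (Fancd2 and Fancf), beside 8.31% of all genes, and 5 were higher in tumor 1 than in tumor 3 (Brca2, Xrcc3, Fanca, Fancd2 and Brip1), beside 9.88%. The genes past 2-fold between tumors 2 and 3 also changed: the ratio of tumor 2 to tumor 3 went to 1.87 for Fanca, 2.24 for Dclre1c, 2.11 for Xrcc3, 0.477 for Xrcc4 and 0.556 for Lig4. The direction of all 2-fold calls depended on the scale: 60.0% of them were higher in tumor 1 than in tumor 2 on the FPKM scale, 69.7% when each tumor was rescaled to a common sum, 47.8% with median-of-ratios factors and 43.7% after the GC correction.

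The median ratio of highest to lowest tumor was 1.84 over the 35 genes and 1.68 over all genes with a mean of at least 1 FPKM. After the GC correction both medians were close, at 1.53 and 1.52. Per gene the ratio ran from 1.12 for Fancg to 3.80 for Fancd2. Set against counting error alone, which leaves out differences between animals and the trends of the scale, of the 33 genes with whole reads, the interval of the ratio lay above 1 for 27 over tumor 2 and for 26 over tumor 3, and below 1 for 1 and 0. For the 29 of these with a mean of at least 1 FPKM it lay above 1 for 23 and 23, beside 49.1% and 53.4% of all 9832 such genes, and below 1 for 1 and 0, beside 31.5% and 22.1%. Between tumors 2 and 3 it held 1 for 17 of the 33, and for 14 of the 29, beside 30.0% of all genes. Fewer reads widen the interval, and the repair genes are low, with a median of 2.53 FPKM beside 5.70. This contrast therefore does not show that the repair genes were more alike in tumors 2 and 3.

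**Figure D4:**
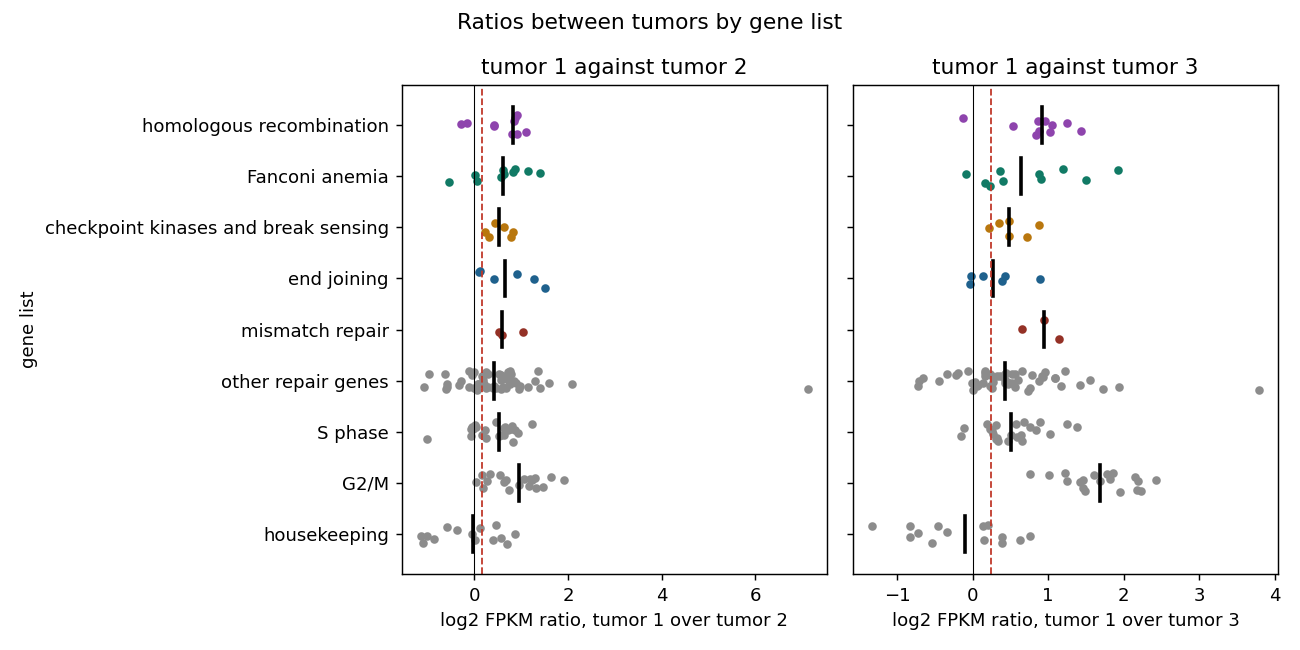
log2 FPKM ratio of tumor 1 to tumor 2 (left) and to tumor 3 (right), 1 point per gene, for the 5 role groups and 4 other gene lists. Black bars are list medians, the red dashed line is the median of all genes (0.18 left, 0.24 right); the G2/M list has the highest medians, 0.95 and 1.68.

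Other genes of the repair pathways, a list of 53, had the same tilt to a smaller degree. Of these 53, tumor 1 was highest for 39, tumor 2 for 9 and tumor 3 for 5, and 29, 13 and 11 after the GC correction. Their median log2 ratio was 0.43 for tumor 1 over tumor 2 and 0.43 for tumor 1 over tumor 3, and 0.18 and 0.15 after the GC correction. H2afx, the histone variant phosphorylated around breaks, was highest in tumor 2, at 26.5, 55.8 and 19.3 FPKM (tumors 1, 2 and 3). Sfr1, a cofactor of strand exchange, was at 39.2, 9.26 and 16.8 FPKM, and Rad9a, a subunit of the checkpoint clamp, was even at 20.8, 20.7 and 20.0. Dna2, a nuclease of end resection, was at 3.69, 1.51 and 0.966 FPKM. Dntt, the template-independent polymerase that adds bases at V(D)J junctions in immature lymphocytes, was at 10.3, 0.0743 and 0.747 FPKM (tumors 1, 2 and 3), the widest ratio on the list. Of the genes of the V(D)J recombinase, which are not on the list, Rag1 had 2, 0 and 0 reads and Rag2 had no read in any tumor.

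Genes of the cell cycle were set beside the repair genes because many repair genes are transcribed in S and G2 phase. Of 19 G2/M genes, 19 were highest in tumor 1 and 19 lowest in tumor 3, with a median ratio of highest to lowest tumor of 3.21; after the GC correction 17 were highest in tumor 1 and 19 lowest in tumor 3. Mki67, the proliferation antigen, was at 38.7, 30.4 and 12.0 FPKM. Top2a, the topoisomerase that untangles chromosomes, was at 42.8, 17.3 and 11.8 FPKM, and Ccnb2, a mitotic cyclin, at 20.6, 14.2 and 8.68. The widest ratios were those of Birc5, a subunit of the chromosomal passenger complex, at 21.5, 5.67 and 4.005 FPKM, of Anln, a scaffold of the cleavage furrow, at 2.51, 1.09 and 0.537, and of the spindle protein Hmmr at 6.57, 2.11 and 1.44.

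The S phase list moved less: tumor 1 was highest for 17 of 23 genes, tumor 2 for 5 and tumor 3 for 1, and the median log2 ratios were 0.53 for tumor 1 over tumor 2 and 0.51 for tumor 1 over tumor 3. After the GC correction 16 were highest in tumor 1 and these medians were 0.08 and 0.23. Pcna, the replication clamp, was at 88.0, 55.9 and 63.6 FPKM. Mcm4 and Mcm3, subunits of the replicative helicase, were at 42.7, 29.6 and 33.7 FPKM and at 36.2, 23.4 and 23.1 FPKM. The widest ratios were those of the licensing factor Cdc6, at 6.63, 3.61 and 2.55 FPKM, of the nucleotide reductase subunit Rrm2, at 41.4, 17.5 and 17.4, and of the ubiquitin ligase adaptor Dtl, at 2.92, 1.53 and 1.44. The medians of the 35 repair genes, 0.63 and 0.72, or 0.27 and 0.39 after the GC correction, were above those of the S phase list. They were below those of the G2/M list, 0.95 and 1.68, or 0.45 and 1.36 after the GC correction. The share of dividing cells in each tumor was not measured; its part in the ratios was not tested.

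Housekeeping genes gave a view of the scale. Of 14, tumor 1 was highest for 6, tumor 2 for 6 and tumor 3 for 2, with median log2 ratios of -0.02 for tumor 1 over tumor 2 and -0.10 for tumor 1 over tumor 3; after the GC correction 2, 4 and 8 were highest in tumors 1, 2 and 3. B2m, the light chain of MHC class I, was at 2327, 1573 and 1781 FPKM, the ribosomal protein gene Rplp0 at 1063, 1919 and 2667, and Actb, cytoplasmic actin, at 1114, 1434 and 1409. The glycolytic Gapdh was at 68.4, 150.4 and 94.0 FPKM.

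Markers of other cells also moved between the tumors, and several were highest in the tumor where most repair genes were highest. The 5 myeloid markers were highest in tumor 1 in 5 of 5, with sums of 246.6, 39.2 and 24.2 FPKM, and lysozyme, Lyz2, the most abundant, was at 215, 33.1 and 20.3. The 4 erythroid markers summed to 130.5, 27.1 and 3.46 FPKM, with the globin gene Hba-a1 at 92.3, 19.6 and 1.90 and 3 of 4 highest in tumor 1. The 3 plasma cell markers summed to 851, 197 and 191 FPKM, led by Jchain at 814, 185 and 179, and 2 of 3 were highest in tumor 1. The 5 neutrophil markers summed to 36.2, 1.33 and 14.8 FPKM, led by S100a9 at 22.6, 1.01 and 10.4, and 3 of 5 were highest in tumor 1, while Elane had no read in any tumor. The 3 dendritic cell markers summed to 4.39, 1.69 and 1.56 FPKM, led by Siglech at 2.52, 0.187 and 0.655, and 2 of 3 were highest in tumor 1.

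The 6 T cell markers, 2 of them CD8 chains, summed to 1058, 630 and 1037 FPKM. The sum was lowest in tumor 2 through Cd8a, Cd8b1 and Trbc2, and the other 3 markers, Cd3e, Cd3g and Cd5, were highest there. The 2 CD4 T cell markers summed to 33.5, 5.35 and 11.5 FPKM, led by Cd4 at 28.4, 4.28 and 8.22. The 5 B cell markers were highest in tumor 3 in 5 of 5 and summed to 56.2, 13.7 and 103.6 FPKM, led by Cd79a at 23.1, 7.31 and 49.0. The 2 NK cell markers summed to 0.688, 5.97 and 3.51 FPKM, with Klrb1c at 0.308, 5.77 and 3.38; the other, Ncr1, was highest in tumor 1, at 0.380, 0.205 and 0.125. The 5 stroma markers summed to 10.2, 42.1 and 0.349 FPKM, led by Col1a1 at 1.63, 15.5 and 0.315 and with 4 of 5 highest in tumor 2, and the 3 endothelium markers to 13.5, 12.7 and 5.08, led by Pecam1 at 12.2, 10.9 and 4.86 and with 2 of 3 highest in tumor 1. The 7 pancreatic acinar markers were highest in tumor 2 in 7 of 7 and summed to 78.8, 411.8 and 0.632 FPKM; Ctrb1, a digestive protease gene, was at 33.9 and 198 FPKM in tumors 1 and 2 and had no read in tumor 3. In such bulk samples fewer cells of a type and less RNA per cell cannot be told apart, and the part of other cells in the repair gene values was not tested.

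**Figure D5:**
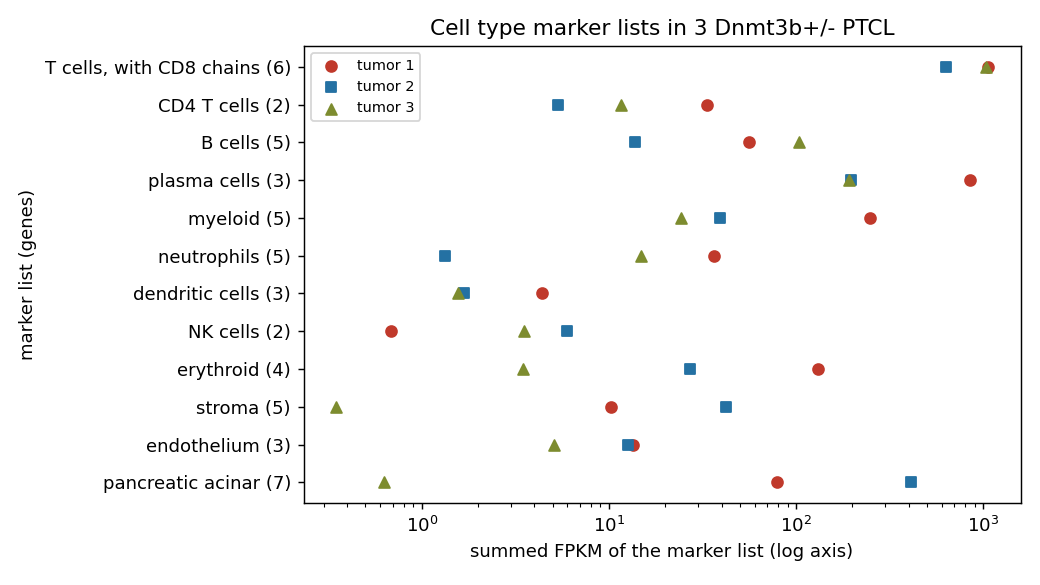
Summed FPKM of 12 cell type marker lists on a log axis, 1 point per tumor, with the number of genes in each list in parentheses. The T cell markers are high in all 3 tumors (1058, 630 and 1037), and the myeloid, erythroid and plasma cell sums are highest in tumor 1.

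Promoters were compared because most of the repair genes were highest in the same tumor. RefSeq windows of 300 bases on GRCm38.p6, from 250 bases before to 50 after the start of transcription, were matched for 28 of the 35 genes; Xrcc2, Rad51d, Nbn, Rad50, Fancd2, Exo1 and Prkdc had no entry. The E2F-type letters TTTCCCGC, TTTCGCGC, TTTGCCGC or TTTGGCGC, on either strand, were in a window of 6 of the 28 genes (Brca2, Chek2, Fancg, Msh6, Rad51c and Xrcc6), and in 2.27% of all 32851 windows of that length. The CHR letters TTTGAA were in a window of 1 of the 28 genes and in 17.9% of all windows, and CCAAT in 19 of the 28 and in 37.4%. Counted by window, as the shares of all windows are, the E2F-type, CHR and CCAAT letters were in 7, 1 and 21 of the 32 windows of these genes. The E2F-type letters shared bases with the other motifs in 0 windows of these genes. E2F factors bind such letters in genes of S phase, but a match of letters is not a bound site. The genes with the letters differed in spread, with a ratio of highest to lowest tumor of 2.70 for Brca2, 1.93 for Msh6 and 1.12 for Fancg. Of the 6 genes, 5 are shown, with the E2F-type letters in capitals, to set genes of unlike spread beside each other.
Brca2 promoter, chr5:150522371-150522670, + strand: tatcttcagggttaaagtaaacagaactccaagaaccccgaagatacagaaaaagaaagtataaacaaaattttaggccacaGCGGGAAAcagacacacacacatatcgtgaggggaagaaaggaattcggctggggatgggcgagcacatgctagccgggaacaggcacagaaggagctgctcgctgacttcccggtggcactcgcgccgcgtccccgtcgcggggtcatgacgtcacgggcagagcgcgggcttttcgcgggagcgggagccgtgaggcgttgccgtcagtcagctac
Msh6 promoter, chr17:87974800-87975099, + strand: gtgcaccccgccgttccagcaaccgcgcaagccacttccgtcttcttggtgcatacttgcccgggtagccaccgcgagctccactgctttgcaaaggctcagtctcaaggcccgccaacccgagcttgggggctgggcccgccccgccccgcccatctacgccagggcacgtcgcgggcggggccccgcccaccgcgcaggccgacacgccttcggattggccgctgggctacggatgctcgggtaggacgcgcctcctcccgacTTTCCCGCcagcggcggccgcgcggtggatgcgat
Chek2 promoter, chr5:110839733-110840032, + strand: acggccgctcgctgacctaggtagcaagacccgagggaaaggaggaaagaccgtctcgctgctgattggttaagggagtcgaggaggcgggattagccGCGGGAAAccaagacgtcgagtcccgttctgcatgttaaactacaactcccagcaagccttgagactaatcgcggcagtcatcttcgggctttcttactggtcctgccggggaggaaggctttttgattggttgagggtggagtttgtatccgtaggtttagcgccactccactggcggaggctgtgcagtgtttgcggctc
Fancg promoter, chr4:43010252-43010551, - strand: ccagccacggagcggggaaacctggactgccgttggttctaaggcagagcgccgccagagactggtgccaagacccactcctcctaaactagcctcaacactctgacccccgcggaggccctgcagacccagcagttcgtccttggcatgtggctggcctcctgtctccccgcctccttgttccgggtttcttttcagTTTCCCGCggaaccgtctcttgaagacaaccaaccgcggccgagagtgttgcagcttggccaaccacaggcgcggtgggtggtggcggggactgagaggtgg
Xrcc6 promoter, chr15:82016119-82016418, + strand: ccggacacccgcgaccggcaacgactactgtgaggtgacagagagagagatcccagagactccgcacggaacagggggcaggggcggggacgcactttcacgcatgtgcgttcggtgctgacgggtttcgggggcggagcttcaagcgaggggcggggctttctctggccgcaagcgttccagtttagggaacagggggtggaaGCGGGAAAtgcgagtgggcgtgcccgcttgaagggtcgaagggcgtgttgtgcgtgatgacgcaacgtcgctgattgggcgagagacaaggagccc
The capitals begin 168 bases before the start of Brca2, 152 before that of Chek2, 52 before that of Fancg and 46 before that of Xrcc6, and 15 bases after that of Msh6.

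The 35 genes lie on 14 chromosomes. For 14 of them a protein-coding gene on the other strand starts within 1000 bases; of the 31 with a mean of at least 1 FPKM it was 11, beside 18.9% of all genes past that filter. The order of the 3 tumors was the same for both genes in 6 of these 14 pairs, and in 4 of the 11 past the filter, beside 32.8% of such pairs over all genes. Tmem167, which starts 485 bases from Xrcc4, was also lowest in tumor 2, at 5.82, 2.89 and 5.19 FPKM, whereas Dctn5, 56 bases from Palb2, was even at 20.9, 21.9 and 22.6, and Zfyve21, 297 bases from Xrcc3, was highest in tumor 1, at 0.797, 0.549 and 0.201. Mcm4, of the S phase list, starts 466 bases from Prkdc, and Emc3 starts 30 bases from Fancd2 and was at 13.6, 8.53 and 8.05 FPKM. Exons of 18 of the 35 genes overlap those of another annotated gene, in 17 of the 31 past the filter beside 43.6% of all genes. The overlap took 10.5% of the exon bases of Fanca (with Zfp276), 15.4% of those of Rad54l (with Lrrc41), 16.0% of those of Fanci (with Polg) and 2.66% of those of Xrcc4 (with Tmem167), on the opposite strand in each case. The largest share was that of Fancc with Gm16133, 16.4%, also on the opposite strand. Whether counting used strand was not given in the sources used here, so reads in the shared bases could belong to either gene. Exons of Pms2 and Atr also overlap genes on the same strand, by 4.85% for Pms2 with Gm42421, where strand would not separate the reads.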

How the data were processed

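Total RNA of 3 Dnmt3b+/- PTCL was sequenced as paired-end libraries. The authors trimmed the reads, used STAR for alignment to mm10 and took gene values from the RNA-seq pipeline of SeqMonk; versions were not given in the sources used here. The deposited values are FPKM on a linear scale, and genes without a read hold the value of 0.9 read. Depth and reads per gene were recovered from that value and GENCODE M21 exon lengths, and the steps were tested on simulated data. Where 36 symbols occurred more than once, the row with the highest mean was kept. Ratios used no pseudocount. Computations ran in Python 3.11 with SciPy 1.17.1 for intervals, pandas 2.3.3 for tables and NumPy 2.4.6; matplotlib 3.10.9 drew the plots. Genes named were all 35 repair genes; of the other repair, cycle and housekeeping lists the 3 with the highest mean and the 3 with the largest ratio of highest to lowest tumor; of each marker list the most abundant gene and markers without a read; and Dnmt3b. Genes beside or overlapping these, and some further markers, are named as examples, and Rag1 and Rag2 were named after their values were seen. Of the genes this rule picks, 1 is not reported here. Members and lists were chosen with earlier results of these data known.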

Additional observations from a re-analysis of the deposited data

How the results depend on the processing

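With 3 tumors of 1 group, every value is a description, and the tumors' own differences cannot be told apart from those of their libraries. No paired analysis was possible because the RNA-seq samples form 1 group and no result comes from a test. Depth limits the low genes most: at 28 reads, as for Rad51b and Fancf in tumor 2, ratios have wide counting intervals. The GC correction and the scaling to the S phase median were chosen after seeing the data. That scaling used the median level of the S phase list, 14.4, 15.5 and 12.3 FPKM in tumors 1, 2 and 3. The cause of the changes below was not tested.

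Tumor 1 was highest for 24 to 32 of the 35 genes under every scale tried, and for 31 and 32 without tumor 2 or 3; without tumor 1 this count has no value. The count of checkpoint and break-sensing genes highest in tumor 1 went from 6 to 2 with the GC correction, that of end joining genes from 4 to 2 with it, to 1 with median-of-ratios factors and to 6 with each tumor rescaled to a common sum or without tumor 3, and that of housekeeping genes from 6 to 2 with the GC correction. The 6 genes 2-fold higher in tumor 1 than in tumor 2 became 11 with each tumor rescaled to a sum of 1000000, 4 with median-of-ratios factors, 2 with the GC correction and 9 with the S phase median. At 1.5-fold and 3-fold they were 20 and 0. The 8 higher than in tumor 3 became 17 with the common sum, 5 with median-of-ratios factors, 5 with the GC correction and 4 with the S phase median, and 19 and 1 at 1.5-fold and 3-fold. The 2 higher in tumor 2 than in tumor 3 became 1 with the S phase median, and 4 and 0 at 1.5-fold and 3-fold. The 2 higher in tumor 3 than in tumor 2 became 1 with the common sum, 1 with the GC correction, 3 with the S phase median and 1 with a pseudocount of 0.1 FPKM. At 1.5-fold and 3-fold they were 3 and 0.

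A threshold of 2 FPKM left 16 genes measured in every tumor, and leaving out a tumor gave 25 to 27. The median ratio of highest to lowest tumor, 1.84, was 2.17 with the common sum, 1.53 with the GC correction and 1.23 to 1.65 with a tumor left out. That of all genes, 1.68, was 1.79, 1.52 and 1.32 to 1.49, and 1.89 over all genes above 0.2 FPKM in at least 1 tumor. Rescaling to the common sum changes the unit, and moved the median level of the 35 genes from 2.53 to 12.6, and those of homologous recombination, Fanconi anemia, checkpoint, end joining and mismatch repair genes to 8.63, 11.2, 20.5, 17.1 and 11.9. Other motif letters gave 1 gene for TTTGAA and 19 for CCAAT. Summing rows of the same symbol changed no value of the 35 genes.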
